A study of Mus musculus with 2 samples.

Results

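Translation factor genes, which encode the proteins that start, extend and regulate protein synthesis on the ribosome, were measured in hippocampal RNA of 2 mice. Members are the genes that have at least 1 transcript annotated as protein coding and a symbol beginning with Eif and a digit, or with Eef1 or Eef2, apart from Eif2s3x, Eif2s3y and Eif1ax, which were not analysed here. This gave 65 genes among 21901 with a protein-coding transcript and 55536 genes in all. The rule uses symbols and no measured levels, though it was set with earlier results of these data known.

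Total RNA of the hippocampus (named a layer of hippocampus in the labels) was sequenced from 2 adult males of B6CASTF1/J, a cross of a C57BL/6 and a CAST mouse, aged 8 to 10 months. No treatment, transgene or mutation is named. Replicate 1 is animal 2 and replicate 2 is animal 4, both carry the same donor entry, and litter and dissection day are not named. From 300 ng of RNA each, 1 strand-keeping, ribosomal RNA-reduced library with ERCC spike-ins (synthetic control RNAs) was made per animal, and no other group exists to compare them with.

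Translation of most messenger RNAs begins when the cap-binding factor eIF4E, the scaffold eIF4G and the helicase eIF4A prepare the message, and eIF2 brings the initiator tRNA to the small ribosomal subunit together with eIF1, eIF1A, eIF3 and eIF5. eEF1A then delivers each charged tRNA, eEF1B recharges eEF1A with GTP, and eEF2 moves the ribosome along. In neurons this machinery also works in dendrites, where its control by kinases acting on eIF2, eEF2 and the eIF4E-binding proteins has been studied for its part in synaptic plasticity.

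The libraries held 23458117 and 29584307 expected counts (reads estimated per gene, whole or divided among genes that share them). Members took 158929 of them (0.677%) in replicate 1 and 217717 (0.736%) in replicate 2. Marker genes of glutamatergic neurons, interneurons, hippocampal subfields, astrocytes, oligodendrocytes, microglia and endothelium were detected in both libraries, with summed levels between 71.2 and 2830 TPM. TPM is transcript abundance corrected for length and scaled to the same total in each library. Markers of choroid plexus, a tissue that adjoins the hippocampus, stood apart, with a sum of 17.9 TPM in replicate 1 and 1792 TPM in replicate 2, and 8 of these 9 genes were higher in replicate 2 by the test described below. In bulk tissue, fewer cells of a type and less RNA per cell cannot be told apart.

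Nearly all members were present. With detection set at 1 TPM or more in both libraries, 62 of 65 members (95.4%) were detected, against 59.4% of all genes with a protein-coding transcript. The median level was 34.7 TPM over all members and 38.7 TPM over the detected ones, against 17.4 TPM over all detected protein-coding genes. In 56 members the mean level was 10 TPM or more, and in 13 it was 100 TPM or more. A group of 5 genes at 300 TPM or more, Eef1a1, Eef1a2, Eif4a2, Eef2 and Eif1, made up 49.2% of the members' summed TPM in replicate 1 and 50.5% in replicate 2. The remaining 3 members were Eif4e1b, Eef1akmt3 and Eef1akmt4, described with their families.

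**Figure D1:**
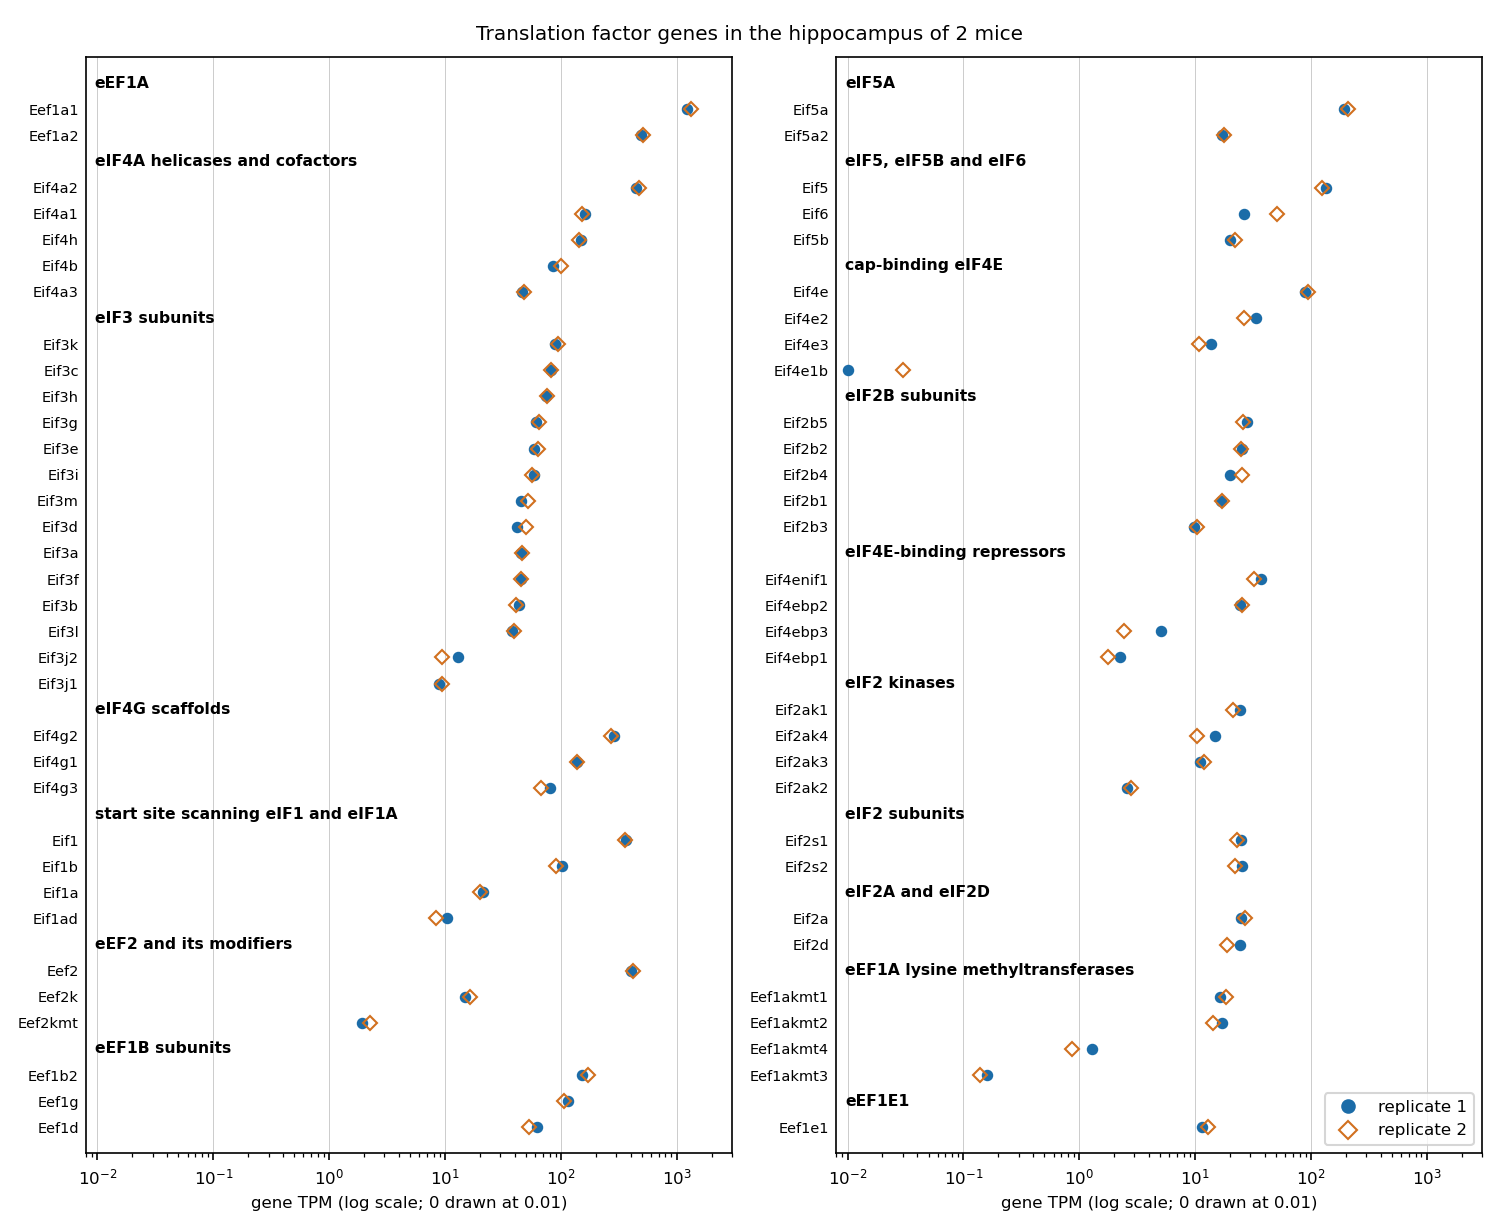
Gene TPM (log scale) of all 65 members, grouped by role, with filled circles for replicate 1 and open diamonds for replicate 2. The symbols of most members overlap, Eif6 and Eif4ebp3 are more than 1.5-fold apart, and Eif4e1b lies at or near 0.

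The elongation factor eEF1A, which carries aminoacyl-tRNA to the ribosome, is made by a pair of genes. Eef1a1 is the form of most tissues, and Eef1a2 is known from neurons, heart and skeletal muscle. Eef1a1 (ENSMUSG00000037742.14, chr9:78478449-78489151 of mm10, minus strand) was the highest member, at 1232 TPM in replicate 1 and 1322 in replicate 2 (mean 1277 ± 63.7, SD, n = 2), and ranked 14 among protein-coding genes. Eef1a2 (ENSMUSG00000016349.10, chr2:181147653-181157014, minus strand) was at 489 and 514 TPM (501 ± 17.6) and ranked 74. The ubiquitous form was thus the higher in both libraries, by 2.52 and 2.57 times, and Eef1a2 made up 28.2% ± 0.301 (SD, n = 2) of eEF1A TPM.

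The printed stretches show how far reads can tell this pair apart, with the bases that differ in capitals. They are the first 90 coding bases of each gene, from the GENCODE M21 transcripts on mm10, which hold the C57BL/6J reference and not the CAST alleles these animals also carry (Eef1a1-201, chr9:78480565-78480654, and Eef1a2-201, chr2:181155317-181155406, both minus strand).
Eef1a1: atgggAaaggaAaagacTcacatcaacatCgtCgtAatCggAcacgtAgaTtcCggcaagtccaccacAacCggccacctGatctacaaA
Eef1a2: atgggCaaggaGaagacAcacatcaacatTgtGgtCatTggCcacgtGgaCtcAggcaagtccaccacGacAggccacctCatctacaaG
These 90 bases differ at 15 positions. Over the whole aligned coding sequence 80.1% of bases were identical, and the longest stretch shared by the transcripts was 23 bases. The ratio of the pair still depended on the quantification. It was 3.24 and 3.27 in a second deposited transcript table, made from the reads with a separate index, and 2.03 and 2.05 in expected counts, which are not divided by length. Eef1a1 was the higher in all of these. In the second table Eef1a1-208, a transcript of 745 bases, held 41.2% and 44.8% of Eef1a1 TPM, against 4.83% and 8.90% in the first transcript table. The longer Eef1a1-201 alone was at 723 and 764 TPM in the second table, against 425 and 450 for Eef1a2.

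eEF2, which drives translocation of the ribosome, was at 403 and 422 TPM (412 ± 13.1), or 23.4% and 23.0% of the summed eEF1A TPM. Its kinase Eef2k, which slows elongation by phosphorylating eEF2, was at 15.7 ± 0.997 TPM, or 3.71% and 3.88% of Eef2. Eef2kmt, a methyltransferase of eEF2, was near the detection limit at 2.08 ± 0.219 TPM. The lysine methyltransferases of eEF1A fell into a detected and an undetected pair. Eef1akmt1 was at 17.4 ± 1.32 TPM and Eef1akmt2 at 15.7 ± 1.82 TPM. Eef1akmt4 had 1.30 and 0.870 TPM from 19 reads in each library, and Eef1akmt3 had 0.160 and 0.140 TPM.

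The exchange factor eEF1B, which returns eEF1A to its GTP-bound state, has subunits encoded by Eef1b2, Eef1g and Eef1d. Eef1b2 was at 153 and 173 TPM (163 ± 14.5), Eef1g at 115 and 106 TPM (110 ± 6.26), and Eef1d at 62.3 and 53.5 TPM (57.9 ± 6.23). Both steps of this TPM order were separated, as gene totals. Transcripts of the nonsense-mediated decay class held 34.0% and 35.0% of Eef1b2 TPM. Over protein-coding transcripts alone, Eef1b2 held 41.4% of the 3 genes and Eef1g 38.1%. The coding transcripts Eef1b2-209 and Eef1g-201 were at 91.4 and 97.1 TPM in replicate 1, and at 99.0 and 90.5 TPM in replicate 2. On coding transcripts the order of these 2 genes was thus not settled. In expected counts, which are not divided by length, Eef1g held 50.2% and Eef1b2 29.2% of the 3 genes, against 33.4% and 49.2% in TPM. Here a step between neighbouring genes is called separated where the deposited TPM bounds of the higher lie above those of the lower in both libraries and the second table gives the same order in both. Eef1e1, a scaffold protein of the aminoacyl-tRNA synthetase complex that shares the name, was at 12.2 ± 1.16 TPM.

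Eef1d encodes a long form, known from brain and testis, that carries an additional amino-terminal region and acts in transcription. In the annotation its extra coding exon is exon 3 of 10 of Eef1d-204, 1130 bases long (chr15:75902679-75903808, minus strand). The coding starts of the 2 forms are given because they lie in different exons (60 coding bases each, start codon in capitals, Eef1d-204 at chr15:75903749-75903808 and Eef1d-218 at chr15:75901189-75901248).
Eef1d long form: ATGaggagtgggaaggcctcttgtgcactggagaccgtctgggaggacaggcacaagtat
Eef1d short form: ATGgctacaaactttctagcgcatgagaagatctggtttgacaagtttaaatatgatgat
Transcripts with a coding length of 1500 bases or more numbered 3 and held 31.4% of Eef1d TPM in replicate 1 and 37.4% in replicate 2 (34.4% ± 4.23), with 26.3% and 29.4% in the second table. Coding transcripts below that length held 51.8% and 54.4%. Those shorter transcripts include partial coding sequences. The 5 of them with the longest coding sequences held 19.5% and 30.9%, and 2.21% and 3.19% in the second table, so the ratio of the long to the short form is not given by these shares. Retained-intron transcripts took the rest, 16.9% and 8.28%.

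Among the eIF4A helicases, which unwind messenger RNA ahead of the small subunit, Eif4a2, a form known to be high in brain, was the highest. Eif4a2 was at 448 and 471 TPM (460 ± 15.8), Eif4a1 at 160 and 151 TPM (156 ± 6.70), and Eif4a3, which sits in the exon junction complex, at 45.9 and 47.9 TPM (46.9 ± 1.43). Eif4a2 made up 68.5% and 70.3% of the family, both steps were separated, and the second table gave 71.1% and 70.8%. Counting only transcripts annotated as protein coding, the share was 58.5%. The cofactors that stimulate the helicase were at 145 ± 4.12 TPM for Eif4h and 93.1 ± 9.68 TPM for Eif4b.

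Less than 50% of the Eif4a2 level was on coding transcripts. In replicates 1 and 2, 45.5% and 48.1% of Eif4a2 TPM lay on protein-coding transcripts, and 40.6% and 42.4% lay on transcripts of the nonsense-mediated decay class, whose reading frame ends early. Almost all of the latter was Eif4a2-210, with 38.7% and 41.9% of the gene's TPM. It skips exon 4 of 11 of the coding transcript Eif4a2-203 (chr16:23109120-23109259, plus strand). The exon is shown first, in capitals after the last 20 bases of the exon before it (chr16:23108832-23108851), and then the junction without it, up to the stop codon in capitals (chr16:23109985-23110067).
Eif4a2-203: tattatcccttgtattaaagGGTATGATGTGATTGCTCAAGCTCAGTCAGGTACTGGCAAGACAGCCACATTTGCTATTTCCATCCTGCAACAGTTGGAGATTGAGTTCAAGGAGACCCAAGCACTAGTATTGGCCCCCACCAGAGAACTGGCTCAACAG
Eif4a2-210: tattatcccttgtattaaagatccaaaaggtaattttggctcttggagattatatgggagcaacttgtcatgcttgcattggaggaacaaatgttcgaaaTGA
The skipped exon has 140 bases, which is not a whole number of codons, and the stop codon is reached 83 bases past the junction, with 6 exon junctions after it. Eif4a2-210 is annotated with 1429 bases after its stop codon, while Eif4a2-203, the coding transcript with the highest mean share, is annotated with 0 bases outside its coding sequence. Reads of the 3′ end can be assigned to the former and not to the latter, and how much of the share this makes was not tested. In the second table the decay class held 22.8% and 23.6% and the retained-intron class 43.5% and 39.7%, so neither the share nor its split between classes was stable to the quantification.

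Eif4h differs by 1 exon between its full coding transcripts. Exon 5 of 7 of Eif4h-205 is absent from Eif4h-201 (chr5:134624441-134624500, minus strand, capitals, with 20 coding bases of each neighbouring exon).
Eif4h-205: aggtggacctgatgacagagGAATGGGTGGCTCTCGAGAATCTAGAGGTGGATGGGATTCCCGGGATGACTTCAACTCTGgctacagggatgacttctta
The exon has 60 bases and keeps the reading frame. Of the TPM of both transcripts, the form with the exon held 14.8% in replicate 1 and 30.2% in replicate 2, and 47.8% and 53.6% in the second table. Whether most Eif4h messages skip the exon could not be settled from these values.

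The eIF4G scaffolds were led by Eif4g2, a relative that lacks the eIF4E-binding site, at 289 and 272 TPM (281 ± 12.2). Eif4g1 was at 138 and 139 TPM (139 ± 0.629) and Eif4g3 at 80.3 and 67.8 TPM (74.0 ± 8.83). Eif4g2 held 57.0% and 56.8% of the family, and both steps were separated.

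Of the cap-binding proteins, Eif4e was at 89.1 and 94.7 TPM (91.9 ± 3.97), above Eif4e2, which binds the cap without recruiting eIF4G, at 33.4 and 26.4 TPM (29.9 ± 4.97). Eif4e3 followed at 13.7 and 10.8 TPM (12.3 ± 1.99), and all these steps were separated. They compare gene totals, and most Eif4e TPM lay on short transcripts. Eif4e-205 (729 bases, 555 of them coding) held 36.5% and 44.6%, and Eif4e-202 (856 bases, 396 of them coding) held 31.2% and 32.3%. Eif4e-201, with 651 coding bases, was at 18.6 and 17.2 TPM, below the gene total of Eif4e2. Eif4e1b, a form known from oocytes, had 0 reads in replicate 1, where a count of 0 allows up to 3 reads or 0.128 CPM (counts scaled to library size), and 1 read in replicate 2. The second table listed it at 0.721 and 0.279 TPM.

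The 4E-BPs compete with eIF4G for eIF4E and are released from it when phosphorylated by mTORC1. Most of their RNA came from Eif4ebp2, the main 4E-BP of brain, at 24.4 and 25.6 TPM (25.0 ± 0.792), or 76.9% and 85.8% of the family. Eif4ebp3 was at 5.13 and 2.44 TPM (3.79 ± 1.90) and Eif4ebp1 at 2.23 and 1.78 TPM (2.00 ± 0.318), and these were not separated from each other. Together the 4E-BPs amounted to 35.7% and 31.4% of Eif4e TPM, most of which lay on short Eif4e transcripts. This ratio depended on the division by length. In expected counts Eif4ebp2 alone had 1907 and 2232, against 1919 and 2581 for Eif4e. Eif4enif1, which carries eIF4E into the nucleus and to processing bodies, was at 34.7 ± 3.49 TPM.

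**Figure D2:**
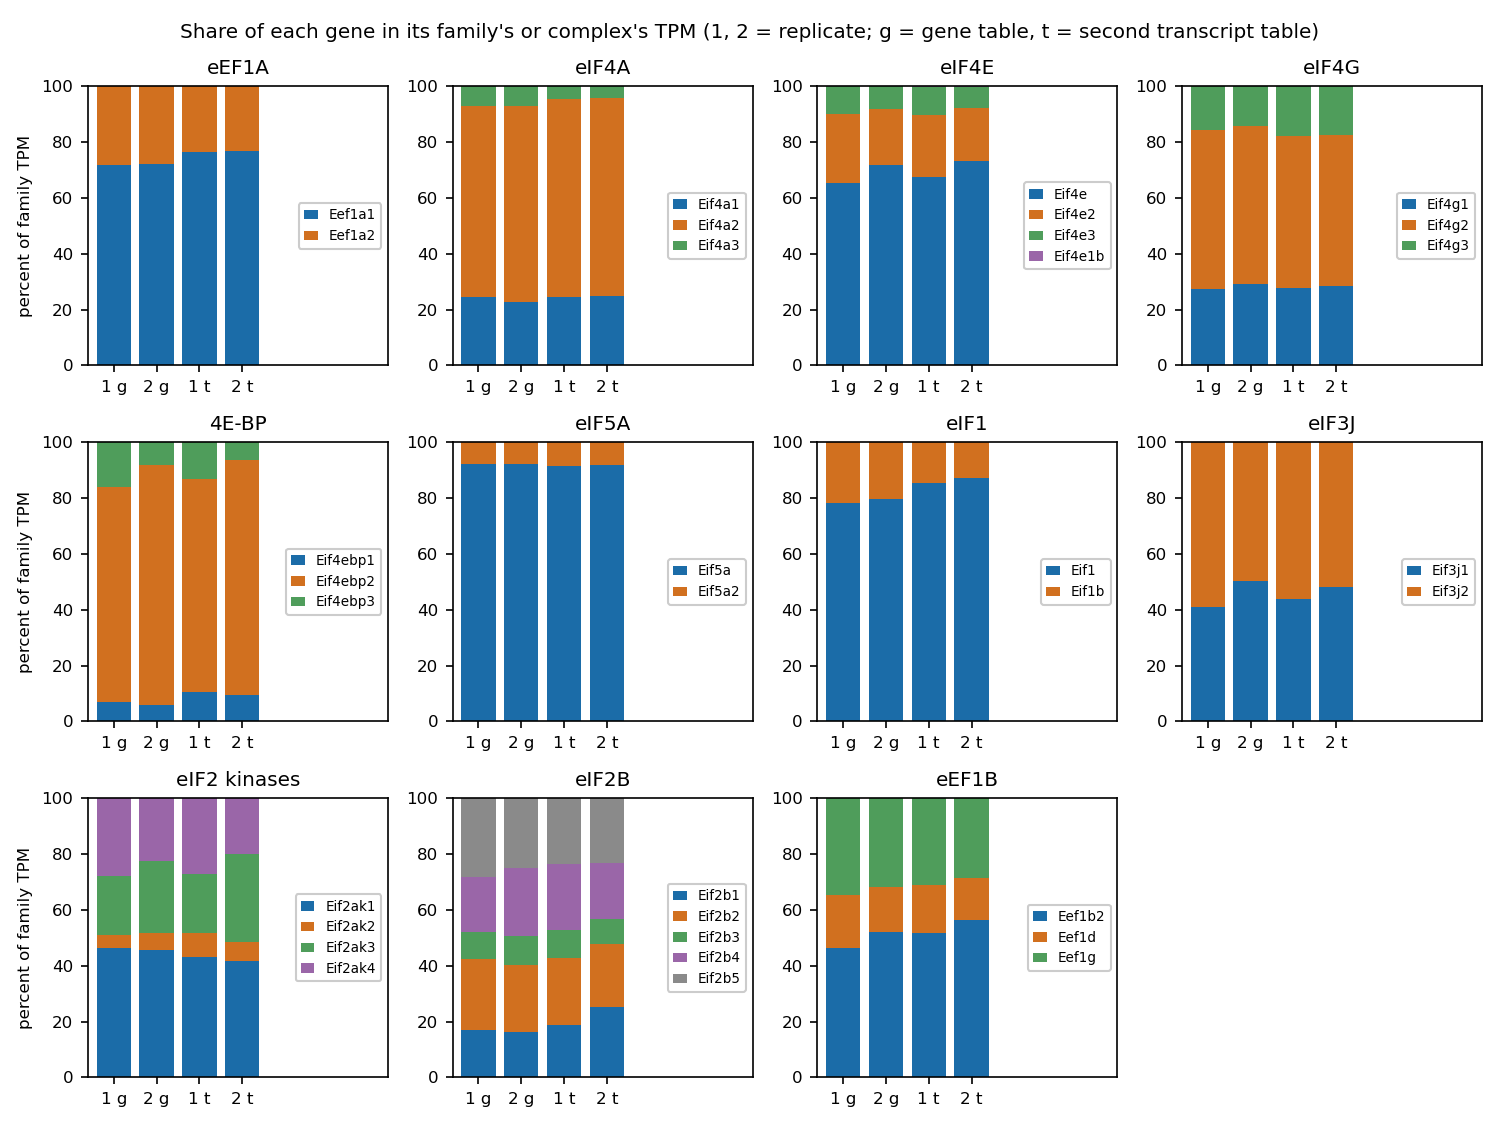
Stacked bars of each gene's share (percent) in the summed TPM of its family or complex, for replicates 1 and 2 in the gene table (g) and in the second transcript table (t). Eef1a1, Eif4a2, Eif4e, Eif4g2, Eif4ebp2, Eif5a and Eif1 hold the largest share of their families in all 4 bars, whereas the order within eIF2B changes.

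Start-site selection factors covered a wide range. Eif1, which guards the choice of start codon, was at 364 and 357 TPM (360 ± 4.59), and its paralog Eif1b at 102 and 90.6 TPM (96.2 ± 7.82), a separated step. Eif1a, which cooperates with eIF1 in scanning, was at 20.6 ± 0.806 TPM. Eif1ad, a protein with an eIF1A-like domain, was at 9.38 ± 1.39 TPM.

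Much of the Eif1 level rested on a short noncoding transcript. Eif1-202, a processed transcript of 383 bases of which 319 are also in the coding transcript Eif1-201, held 48.4% and 46.9% of the gene's TPM but 18.9% and 18.1% of its expected counts. Eif1b made up 21.1% ± 1.14 of the pair's TPM, and 35.6% where protein-coding transcripts alone were counted. The same held for Eif2s1, where Eif2s1-203 (433 bases, all of them within the coding transcript Eif2s1-201) took 51.3% and 44.6% of TPM and 9.83% and 7.65% of expected counts.

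Subunits of eIF2, which holds the initiator tRNA, were low beside the elongation factors. Eif2s1 (alpha, the subunit phosphorylated under stress) was at 24.0 ± 1.21 TPM and Eif2s2 (beta) at 23.8 ± 2.45 TPM. eIF2B, the exchange factor that reloads eIF2 and is mutated in human vanishing white matter disease, had its 5 subunits between 10.1 and 27.1 TPM. Eif2b5 was at 28.3 and 26.0 TPM, Eif2b2 at 25.6 and 25.0, Eif2b4 at 19.98 and 25.5, Eif2b1 at 16.9 in both libraries, and Eif2b3 at 9.82 and 10.4. Only the step from Eif2b1 to Eif2b3 was separated, so Eif2b3 was the lowest and the other 4 had no settled order. In the naming order of subunits 1 to 5, the means and SDs were 16.9 ± 0.0141, 25.3 ± 0.389, 10.1 ± 0.438, 22.7 ± 3.89 and 27.1 ± 1.64 TPM.

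The kinases that phosphorylate eIF2 alpha were all detected. Eif2ak1 (HRI, sensitive to heme) led at 24.4 and 21.1 TPM (22.7 ± 2.35), or 46.2% and 45.6% of the 4 kinases. Eif2ak4 (GCN2, amino acid shortage) was at 14.8 and 10.4 TPM (12.6 ± 3.13) and Eif2ak3 (PERK, endoplasmic reticulum stress) at 11.1 and 12.1 TPM (11.6 ± 0.679), with their order turned between the libraries. Eif2ak2 (PKR, double-stranded RNA) was the lowest at 2.57 and 2.78 TPM (2.67 ± 0.148), a separated step. Eif2a and Eif2d, which can bring initiator tRNA by routes apart from eIF2, were at 26.0 ± 1.46 and 21.7 ± 4.06 TPM.

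The genes of eIF3, the large complex that binds the small subunit, lay close together. Leaving out the loosely bound j subunit, the other 12 genes spanned 2.37-fold from lowest to highest in both libraries. Eif3k was the highest at 89.7 and 94.3 TPM (92.0 ± 3.28) and Eif3l the lowest at 37.8 and 39.8 TPM (38.8 ± 1.44). Per length Eif3k thus held 12.8% of eIF3, and in expected counts 4.82%, where Eif3c was the highest at 18.2%. Between them in TPM lay Eif3c at 82.3 ± 0.919, Eif3h at 75.2 ± 1.63, Eif3g at 63.3 ± 2.81, Eif3e at 61.0 ± 2.81 and Eif3i at 57.6 ± 1.40 TPM. They were followed by Eif3m at 48.9 ± 4.91, Eif3d at 46.0 ± 5.66, Eif3a at 45.6 ± 0.240, Eif3f at 45.4 ± 0.0636 and Eif3b at 42.4 ± 1.36 TPM. Of the 13 neighbouring steps among all 14 genes, 2 were separated, Eif3h over Eif3g and Eif3l over Eif3j2. In the other families, which count the pair of j genes once more, 16 of 22 neighbouring steps were separated.

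In TPM the j subunit stood below the rest of eIF3. Eif3j1 was at 8.90 and 9.47 TPM (9.19 ± 0.403) and Eif3j2 at 12.9 and 9.34 TPM (11.1 ± 2.53). Their sum was 21.8 and 18.8 TPM, against medians of 52.0 and 54.5 TPM for the 12 other genes. This depended on the division by length. In expected counts Eif3j1 had 599 and 908 and Eif3j2 415 and 405. Eif3m, the lowest of the 12 others in expected counts, had 753 and 1092. Each j gene alone lay below Eif3m in both libraries, and the j pair together lay above it. The aligned coding sequences of Eif3j1 and Eif3j2 were identical in the reference (100%, with a shared run of 784 of 786 coding bases of Eif3j1). Over the transcripts the longest shared run was 1107 bases, of 5413 in Eif3j1-201 and 2379 in Eif3j2-201. How many reads fell outside shared sequence was not tested. The split between the j genes is therefore uncertain, and their sum is the safer value.

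Factors of the late steps and of elongation support completed the set. Eif5, the GTPase activator of eIF2, was at 130 ± 6.95 TPM, and Eif5b, which joins the subunits, at 19.9 and 22.1 TPM (SD 1.56). Eif5a, the hypusine-bearing factor that relieves stalled ribosomes, was at 194 and 210 TPM (202 ± 11.0), and Eif5a2 at 17.0 and 17.6 TPM (17.3 ± 0.460), or 8.04% and 7.75% of the pair. In expected counts, which do not correct for the longer Eif5a2 transcript, that share was 27.6%. It has 5027 bases, against 1343 for Eif5a-210, which held the most Eif5a TPM (40.8% and 44.0%).

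Eif6, which keeps free large subunits from joining, was the detected member with the second-highest relative spread, at 26.5 and 50.6 TPM (38.5 ± 17.1). Its expected counts were 423 and 718. In the first transcript table most of the TPM difference lay in short transcripts. In the second table the gene was at 52.9 and 78.3 TPM, with 46.4% and 39.3% on protein-coding transcripts, so coding transcripts rose there too. The following values are of the first table. Eif6-205 (402 bases, processed transcript) went from 5.25 TPM in replicate 1 to 16.4 in replicate 2 and Eif6-207 (548 bases, decay class) from 1.28 to 10.5, while the coding transcript Eif6-201 was at 19.3 and 17.2 TPM.

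**Figure D3:**
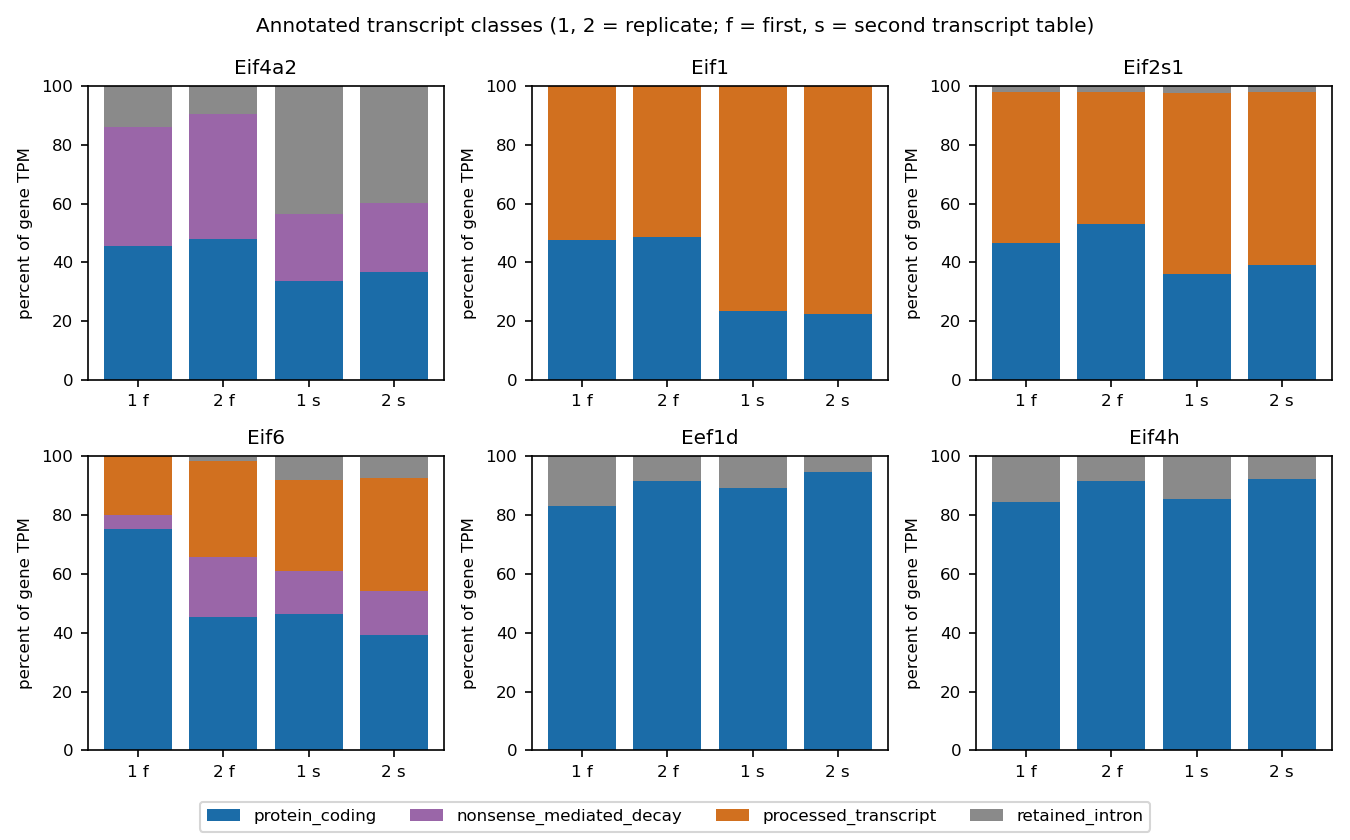
Stacked bars of the percent of gene TPM on each annotated transcript class, for replicates 1 and 2 in the first (f) and second (s) transcript table. Protein-coding transcripts hold under 50% of Eif4a2 and Eif1 in all 4 bars, and 83.1% or more of Eef1d and Eif4h.

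Most members had most of their TPM on coding transcripts. The median protein-coding share of the 62 detected members was 84.9% in replicate 1 and 91.9% in replicate 2, against 87.0% and 91.0% over 12999 detected protein-coding genes. Members under 50% in both libraries numbered 3 in the first table (Eif1, Eif4a2 and Eif4ebp1) and 6 in the second (Eef1b2, Eif1, Eif2s1, Eif4a2, Eif5b and Eif6), with Eif4a2 and Eif1 in both. For Eif4ebp1, with 24 and 32 reads, the share was 5.41% and 20.8% in the first table but 100% and 66.2% in the second. In 42 members with an annotated retained-intron transcript, the median share of that class was 11.3% in replicate 1 and 7.29% in replicate 2, lower in replicate 2 in 31 of them (73.8%). Over 7561 such genes the medians were 14.5% and 9.82%, lower in 76.1%, so this difference between libraries was also present over all such genes.

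The libraries were then compared to see whether any member differed by more than their spread. With 1 group, this compares 2 libraries and not conditions. edgeR called 126 of 16123 tested genes (0.781%) at a Benjamini-Hochberg adjusted p under 0.05, with 54 higher and 72 lower in replicate 2, and 732 at an unadjusted p under 0.05. None of the 62 tested members was called, and 0 had an unadjusted p under 0.05. Against that background share, a count of 0 among 62 genes does not set the members apart. It was 0 too in each alternative, where the background was 0.813% with library sizes alone, 0.533% with spike-in scaling, 0.443% without the filter on low counts, 0.626% in the second table and 2.11% with a common dispersion. The lowest unadjusted p was 0.0785 (Eef1b2, edgeR). In simulated libraries of 16123 genes, the test recovered 8.4% of 2-fold and 68.4% of 4-fold changes. The changed genes were drawn from all levels, and the fitted dispersion was taken as the true one. Most 2-fold differences would thus be missed over all genes, and recovery at the members' own levels was not computed.

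The members with the highest ratios were mostly of low or middle level. In log2 ratio of replicate 2 over replicate 1, Eif2ak2 was at 0.50 (97 and 171 reads), Eif6 at 0.45, Eef2kmt at 0.41 (39 and 65 reads), Eif4a3 at 0.39 (606 and 988 reads) and Eef1b2 at 0.33 (1351 and 2107 reads). For Eif2ak2 the second table gave -0.35, the opposite sign. The lowest were Eif4ebp3 at -0.91 (46.5 and 29.8 reads), Eif2d at -0.38 (639 and 609 reads), Eif3j2 at -0.35 (415 and 405 reads), Eif4e2 at -0.24 (1110 and 1172 reads) and Eif2ak4 at -0.23 (827 and 874 reads). All 10 had a Benjamini-Hochberg adjusted p of 0.9999 in edgeR, and the lowest of them over the alternatives was 0.730 (Eif4ebp3, common dispersion).

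**Figure D4:**
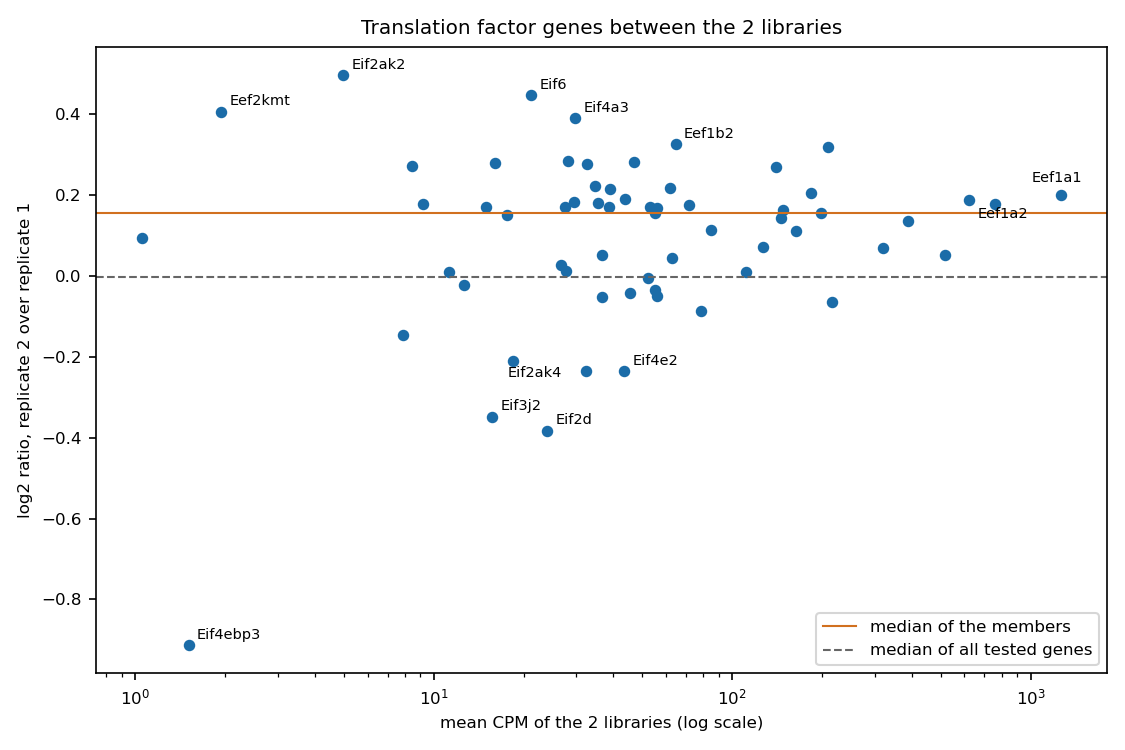
Log2 ratio of replicate 2 over replicate 1 (TMM-scaled CPM) of the 62 tested members against their mean CPM (log scale), with lines at the median of the members (0.16) and of all tested genes (0.00). Most points lie above the lower line, and Eif4ebp3 is the lowest at -0.91.

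As a list, the members had slightly higher ratios than all tested genes. In scaled counts their median log2 ratio was 0.16 against 0.00 over all tested genes, and 47 of 62 (75.8%) were above 0 against 49.8% of all. In TPM most of these members had a lower ratio than in counts, and many were below 0. Eif1 went from 0.11 in counts to -0.03 in TPM, while Eef1a1 stayed above 0 (0.20 and 0.10). The TPM ratios of all genes were not set beside them. Scaling by spike-ins, which shifts all genes by nearly the same amount, put the median of all genes at -0.23 and that of the members at -0.07, with 12 of 62 above 0. The sign of the members' ratios is therefore relative to the scaling chosen. Among 4531 genes with at least the members' median of 43.7 CPM, the median was 0.04 and 57.4% were above 0. The 31 members among those had a median of 0.16, with 25 above 0. Choroid plexus markers (17.9 and 1792 TPM in sum) and retained-intron shares also differed between the libraries, and their part in this shift was not tested.

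Other genes of the translation pathway were given in 8 lists. Of these 39 genes, 38 were detected, against 59.4% of all genes with a protein-coding transcript, Trib3 being the exception at 0.565 ± 0.262 TPM. edgeR called 0 of 38 tested, and at the background of 0.781% this count says nothing particular about them. The highest were Tpt1, a growth-related protein whose message is controlled at translation, at 450 ± 11.8 TPM, and Cyfip2, a partner of FMRP, at 261 ± 7.46 TPM. Pabpc1, the poly(A)-binding protein that contacts eIF4G, was at 133 ± 4.38 TPM. Dhps and Dohh, which make the hypusine of eIF5A, were at 33.0 ± 5.90 and 34.3 ± 3.81 TPM. The release factors Etf1 and Gspt1 were at 31.3 ± 1.31 and 39.5 ± 0.636 TPM, and Mtor, the kinase upstream of the 4E-BPs, at 42.4 ± 4.55 TPM. Of the integrated stress response that eIF2 kinases switch on, Atf4 was at 45.8 ± 6.06 TPM, Asns at 55.4 ± 2.78, Ddit3 at 16.8 ± 2.91 and Chac1 at 3.31 ± 1.17 TPM. Of the mitochondrial counterparts, Tufm was at 39.3 ± 1.08 TPM.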

How the data were processed

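Per the file headers, values are on mm10 with annotation M21, the gene table and one transcript table derive from transcriptome alignments, and another transcript table (the second) from the read files and an index. Program names are not stated there. The authors deposited expected counts (estimated reads, unscaled), TPM, percent of gene TPM per transcript, and lower and upper TPM bounds, treated as scores of unknown level that exclude spread between animals. The deposited TPM lay inside its own bounds in 57 of 65 members in replicate 1 and 58 in replicate 2. The highest members, Eef1a1, Eef1a2, Eif4a2 and Eef2, lay above their upper bounds in both libraries. The second table's deposited estimated counts and TPM were summed per gene here. 

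Members and lists were chosen with earlier results of these data known. All members are named with mean and SD over the 2 libraries, families with both values, as are the 5 highest and 5 lowest log2 ratios. Ddit3 has a second entry without reads, not used. The 2 libraries were compared with edgeR 4.0.16 in R 4.3.3 on rounded expected counts: genes at 1 CPM or more in at least 1 library, TMM scaling, an intercept-only fit with trended dispersion, and residual deviance against chi-square with 1 degree of freedom. A quasi-likelihood test was not usable with 1 residual degree of freedom. The dispersion was estimated from the same 2 libraries. These p-values therefore ask only whether a gene departs from the usual spread between them at its level. That spread may be technical, and 2 libraries cannot reach p under 0.05 in an exact permutation test. Log2 ratios use a prior count of 2. The script was tested on simulated data, where 0.0226% of unchanged genes were called. The limit of 3 counts covers counting error only. Coding sequences were aligned with Biopython 1.88.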

Additional observations from a re-analysis of the deposited data

How the results depend on the processing

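Apart from leaving out a library, 117 values were recomputed, and 84 of them kept their direction and call or stayed within 1 SD. Most of these 84 were log2 ratios of uncalled members, which say little about the percent shares. Shares moved more often. In expected counts 10 shares moved and 2 stayed, and on protein-coding transcripts alone 6 moved and 6 stayed. Moved values numbered 15 in the second table, and all of them were shares. Genes differing between the libraries numbered between 86 and 131 under 5 alternatives and 341 with a common dispersion, while 0 members were called in all 6. The log2 ratio of Eif2ak2 turned to -0.35 in the second table. Percent shares moved as follows, and beyond the division by length and the set of transcripts counted, the cause was not tested. The second table gave 23.5 for Eef1a2, 70.9 for Eif4a2, 54.4 for Eif4g2, 8.33 for Eif5a2, 13.8 for Eif1b, 42.3 for Eif2ak1, 23.5 for Eif2b5 and 53.9 for Eef1b2. By transcript it gave 23.2 for the decay class and 35.2 for the coding class of Eif4a2, 77.0 and 60.2 for the processed transcripts of Eif1 and Eif2s1, 27.8 for long Eef1d and 50.7 for Eif4h-205. Expected counts gave 32.9 for Eef1a2, 57.8 for Eif4e, 49.0 for Eif4g2, 96.9 for Eif4ebp2, 27.6 for Eif5a2, 25.5 for Eif1b, 35.9 for Eif3j2, 37.9 for Eif2b5 and 29.2 for Eef1b2. For Eif3k in eIF3, the second table gave 13.1 and expected counts 4.82, against 12.8. Protein-coding transcripts alone gave 28.9 for Eef1a2, 58.5 for Eif4a2, 35.6 for Eif1b, 47.5 for Eif2ak1, 32.4 for Eif2b5 and 41.4 for Eef1b2. Leaving out a library returns the other one's value, which cannot show stability. The Eif4h-205 share moved the most of the 38 in relative terms, from 22.5 to 14.8 or 30.2, and detected members numbered 62 or 63. Detected members numbered 63 at 0.5 TPM and 58 at 5 TPM. No paired analysis was possible because there is 1 group.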
